A study of Mus musculus with 9 samples.

Results

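Genes for ion channels, connexins and a pannexin were followed in sorted tendon cells of the mouse embryonic forelimb. They were selected by name and by signal. A gene was taken if its single annotated symbol began with Kcn, Cacna, Cacnb, Cacng, Scn, Trpc, Trpm, Trpv, Gja, Gjb, Gjc or Gjd, or was Piezo1, Piezo2 or Panx1, and if its brightest probe set exceeded 90.6, the median signal of all probe sets and arrays, on 3 or more of the 9 arrays. Of 158 genes with such a symbol, 63 passed and 95 did not. The same filter on signal kept 11575 of the 18193 genes on the array. Because signal decided which genes were kept, 7 of the 63 had to differ between stages: Cacna1e, Kcnip4, Kcnj15, Kcnj8, Kcnma1, Scn2a and Scn3b exceeded the median at E14.5 and at no other stage. Their changes to E14.5 are therefore described with no p-value, and the main counts of calls at E14.5 are given for the other 56. Some of the 56, among them Cacna2d3, Kcnd3 and Kcnq5, also reached 3 arrays only with those of E14.5. The p-values and counts of the 56 are therefore not free of this selection. At the edge of the filter, the signal that decides, the third highest of the 9, was 90.8 for Trpc7, 93.2 for Kcnj15 and 95.9 for Cacna1e, which were kept. It was 90.5 for Cacna1f, 88.7 for Gjb2 and 82.7 for Scnn1a, which were not.

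The groups were cells of Scx-GFP embryos at embryonic days E11.5, E12.5 and E14.5, with 3 arrays in each, lettered A, B and C. Scx encodes a transcription factor of tendon progenitors, and in all groups the GFP reporter follows it. Whole forelimbs were treated with trypsin, and the GFP-positive fraction was taken on 1 of 2 types of cell sorter, so the profile is that of all cells with enough GFP to be sorted. The labels give neither strain, sex nor litter. Whether a stage's 3 samples were from different litters is not given, so each p-value measures only the spread between these samples, which may be technical.

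Ion channels let potassium, sodium, calcium or other ions cross the cell membrane and so set its voltage and its calcium entry. Pore-forming subunits carry the current, and auxiliary subunits alter the gating or the delivery of the pore to the membrane. Piezo proteins open when the membrane is stretched, and mechanical load is a known stimulus of tendon cells. Connexins form gap junctions, which join the cytoplasm of neighbouring cells. They are known to couple tendon cells along and between their rows.

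Of the 10 tendon markers examined, 9 were called higher at E14.5 than at E11.5. Scx itself was lower, with a signal of 11152 ± 3339 at E14.5 and 19338 ± 3927 at E11.5 (SD, n = 3 each; adjusted p = 0.0164, limma). Markers of other cell types were also present and moved with stage. Markers above the median at E14.5 alone, if any, were not set apart, so the filter may favour some of these calls. All 4 endothelial markers that passed the filter were called higher, and the summed signal of the endothelial list was 965 to 1394 at E14.5 against 245 to 508 at E11.5, with Pecam1, Cldn5 and Tie1 not passing. Skeletal muscle markers were higher in 5 of 10 cases and summed to 8439 to 11474 at E14.5 against 3412 to 5750 at E11.5. Smooth muscle and pericyte markers were higher in 3 of 5 cases and summed to 9358 to 12062 at E14.5 against 7618 to 8558 at E11.5, with Myh11 and Cnn1 not passing. Nerve and glia markers summed to 918 to 1126 at E14.5 against 888 to 1107 at E11.5, with 1 of 4 higher and 1 lower, and Sox10, Foxd3, Elavl3 and Snap25 not passing. Cartilage markers were higher in 4 of 8 cases and summed to 10970 to 74555 at E14.5 against 16579 to 19855 at E11.5. Epithelial markers were higher in 3 of 4 cases and lower in 1, with sums of 936 to 1240 at E14.5 against 615 to 704 at E11.5, and of 4 blood markers 1 was lower, with sums of 417 to 927 at E14.5 against 711 to 3401 at E11.5. The part of these cells in any channel result was not tested, and in such a sorted mixture fewer cells of a type cannot be told apart from less RNA per cell. The 3 arrays lettered A stood apart on the second principal component (11.1% of the variance), so counts are also given without them.

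At E14.5 against E11.5, 28 of the 56 genes were called higher, and most of the connexin and pannexin genes were called lower. With low signals raised to a floor of 22.7, the 25th percentile of all signals, the largest rises were in the stretch-activated channel Piezo2, the monovalent cation channel Trpm5, the auxiliary subunit Kcne4 and the two-pore potassium channel Kcnk6, between 9.68-fold and 12.7-fold. This order depended on the floor: with none, Kcnj15 came first (log2 3.75), and with a floor at the median of all signals, Kcne4 (3.48), Kcnk6 (3.26), Trpm5 (2.92) and Kcnd2 (2.70) were the first 4. Both Piezo genes, the auxiliary potassium subunits Kcne4, Kcne1l, Kcnab1 and Kcnab2, and 6 of 8 auxiliary calcium subunits were called higher. The auxiliary potassium subunit Kcnmb4 was not called (log2 -0.06, adjusted p = 0.86). The gap junction genes Gja3, Gjc1 and Gja1 were called lower, and no connexin or pannexin gene was called higher. The threshold for a call was an adjusted p of 0.05 in limma's moderated test of all 11575 genes.

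The 28 of 56 genes called higher at E14.5 than at E11.5 compare with 22.9% of all genes tested. All genes tested include those above the median at E14.5 alone, which the 56 leave out, so the sets are not filtered alike. This holds for every share of all genes set beside the 56 or a part of them. Another 6 were called lower (10.7%), where 17.7% of all genes were. The median log2 change was 0.50 over the 56 genes and 0.00 over all genes. All 7 genes above the median at E14.5 alone also passed the threshold, which makes 35 of 63, but the filter favoured those 7 calls. Without the A arrays, 24 of the 56 were higher and 7 lower. Over all genes, the counts without them were 2116 higher and 1260 lower. Centring each array on its own median moved the median change of all genes by -0.22 and turned the split over all genes to 1674 higher and 2485 lower, against 2646 and 2045 as scaled by the authors. Under that centring 24 of the 56 genes were higher and 9 lower.

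**Figure D1:**
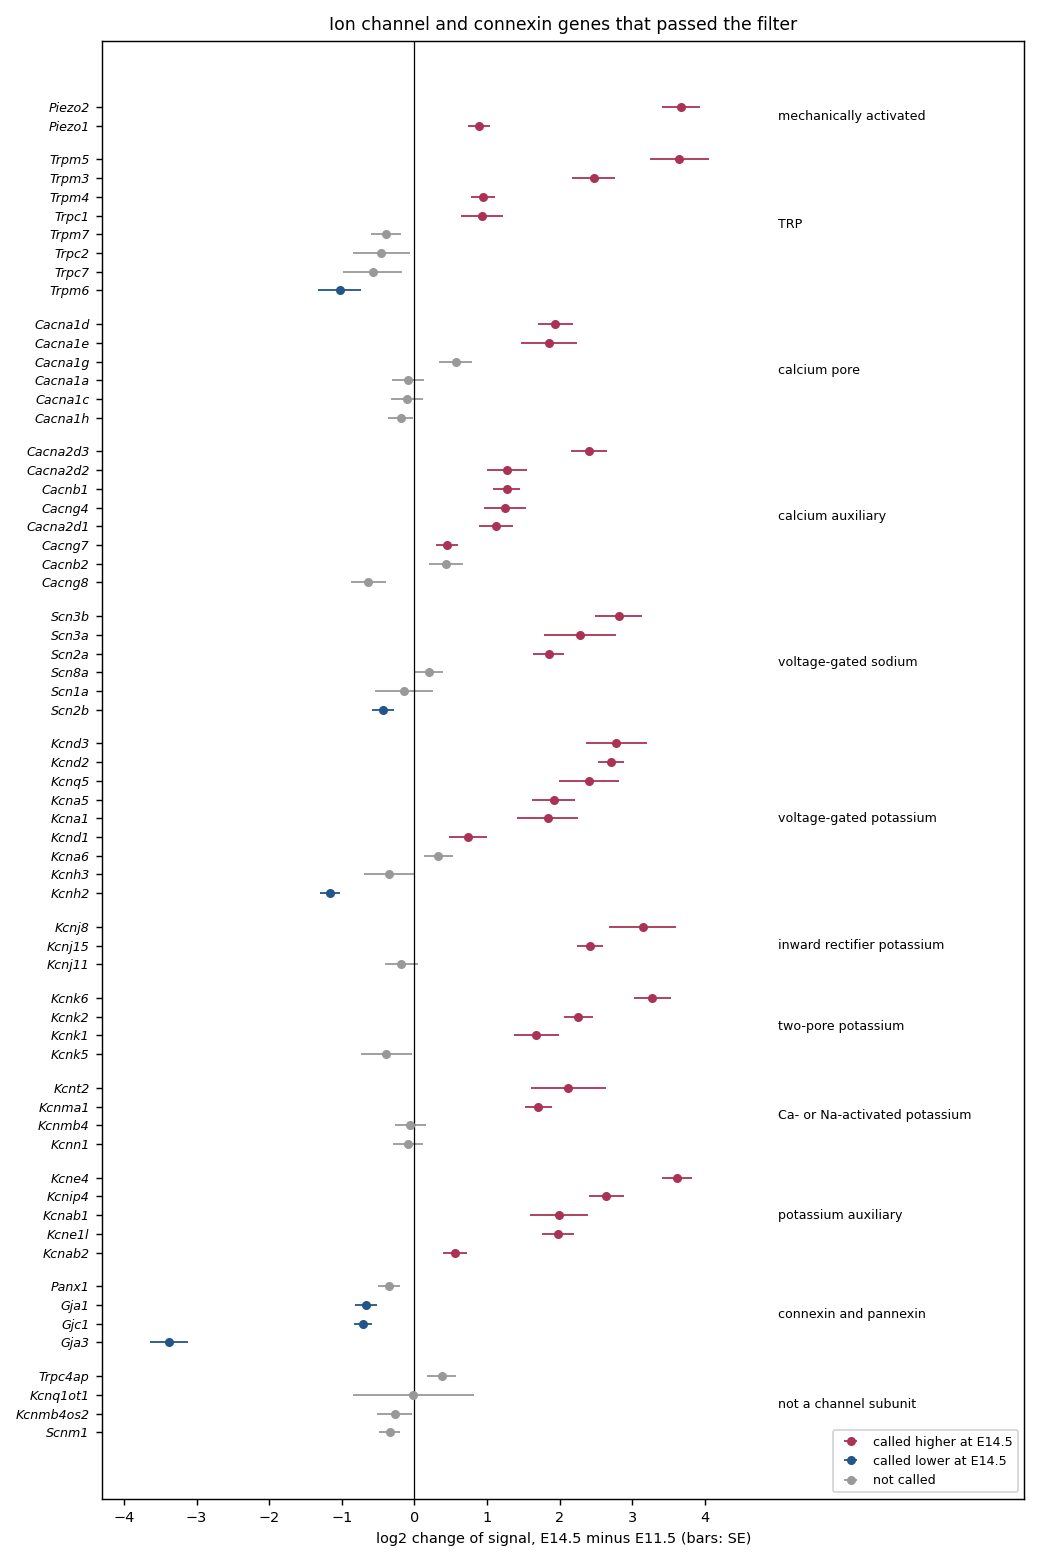
Change of each of the 63 genes, ordered by role: the horizontal axis gives the log2 signal at E14.5 minus that at E11.5, points are fitted changes and bars their SE. Of the 63 points, 35 are called higher, among them the 7 genes above the median at E14.5 alone, and 6 lower, and all 4 points of the connexin and pannexin group lie below 0.

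In E12.5 against E11.5, 11 genes were called higher (17.5%), where 3.11% of all genes were. Kcnh2 alone was called lower (1.59%), where 0.441% of all genes were. The median log2 change was 0.46 over the 63 genes and 0.04 over all genes. In E14.5 against E12.5, 14 of the 56 genes were higher, where 12.6% of all genes were, and 5 were lower (8.93%), where 9.32% of all genes were. The medians were 0.25 over the 56 genes and -0.05 over all genes. These comparisons share stages, so their calls are not independent. Without the A arrays, 6 higher and 0 lower of the 63 genes were called in E12.5 against E11.5. Over all genes, calls fell there from 360 higher and 51 lower to 225 and 24. In E14.5 against E12.5, 8 higher and 1 lower of the 56 were called without them. Over all genes, calls fell there from 1463 higher and 1079 lower to 785 and 299. Single arrays also moved the 12 calls of E12.5 against E11.5. Of these 12, 2 remained without array C of E12.5, 4 without array B of E12.5 and 5 without array A of E11.5. The number was 6 without array B of E11.5, array C of E11.5, array A of E12.5 or array B of E14.5.

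Across the 3 comparisons, 44 of the 63 genes were called at least once. These include the 7 genes above the median at E14.5 alone, whose calls at E14.5 the filter favoured. In every comparison, 8 were higher: Kcnd2, Kcne4, Kcnip4, Kcnk2, Kcnk6, Piezo2, Scn2a and Trpm3. Kcnip4 and Scn2a are among those 7. Under the 20 alternatives, Kcne4 lost its call at E12.5 against E11.5 in none, Piezo2 in 2, Kcnd2 in 4, Kcnk2 in 8, Kcnk6 in 12, Kcnip4 in 14, Trpm3 in 15 and Scn2a in 16. Trpm3 also lost the call at E14.5 against E12.5 in 6. A further 12 were higher at E14.5 than at both earlier stages, with no call between the earlier 2. Kcnj15, Kcnj8, Kcnma1 and Scn3b, of those 7, are among them. Between the outer stages alone, 14 were called higher, with Cacna1e among them. How many of all genes were called at least once, or had each pattern, was not counted, so these counts only describe the members. Kcnmb4 and Kcnmb4os2 had their highest signal at E12.5. The 19 genes never called were Cacna1a, Cacna1c, Cacna1g, Cacnb2, Cacng8, Kcna6, Kcnh3, Kcnj11, Kcnk5, Kcnn1, Kcnq1ot1, Panx1, Scn1a, Scn8a, Scnm1, Trpc2, Trpc4ap, Trpc7 and Trpm7. A gene without a call is not shown to be stable.

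Piezo2 and Piezo1 encode channels that open on membrane stretch. Piezo2 had signals of 29.5, 40.7 and 29.4 in the A, B and C arrays of E11.5, 107, 151 and 148 at E12.5 and 275, 496 and 536 at E14.5. The 3 stages did not overlap. The log2 change was 3.67 ± 0.27 (SE) at E14.5 against E11.5 (adjusted p = 1.07e-05), 2.03 ± 0.27 at E12.5 against E11.5 (0.00544) and 1.64 ± 0.27 at E14.5 against E12.5 (0.00281). With the floor at the median instead of the 25th percentile, the first of these was 2.21, and the second was 0.56 and lost its call (adjusted p = 0.295). With all probe sets of the gene averaged, they were 2.33 and 0.87 (the second with an adjusted p of 0.281).

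Piezo1 was well above the median of all signals in every array. Its signals were 667, 773 and 697 at E11.5, 695, 775 and 901 at E12.5 and 1496, 1337 and 1133 at E14.5. The E14.5 arrays were above all 6 earlier arrays, while E11.5 and E12.5 overlapped. Piezo1 was 1.85-fold higher at E14.5 than at E11.5 (log2 0.89 ± 0.15, adjusted p = 0.00172) and 1.67-fold higher at E14.5 than at E12.5 (log2 0.74 ± 0.15, adjusted p = 0.00919). The call against E12.5 was lost with median centring (0.0791) and without the A arrays (0.0962).

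TRP genes encode cation channels gated by calcium, lipids, heat or other cues. Of 18 with a probe set, 8 passed, and 4 of these were higher and 1 lower at E14.5 than at E11.5. Over all genes, 22.9% were higher and 17.7% lower. Trpm5, a channel opened by internal calcium and known from taste cells, had signals of 29.8, 60.4 and 94.2 at E11.5, 112, 200 and 262 at E12.5 and 728, 691 and 665 at E14.5. Its arrays did not overlap between stages, and in each of the earlier stages array A was lowest and C highest. The log2 change was 3.65 ± 0.41 at E14.5 against E11.5 (adjusted p = 0.000141) and 1.95 ± 0.41 at E14.5 against E12.5 (0.00957). For E12.5 against E11.5 it was 1.70 ± 0.41 with an adjusted p of 0.0551, and 0.0239 with the letters as a replicate block. It passed under 8 of the 20 alternatives. The 3 Trpm5 probe sets that passed the filter changed by 2.72 to 3.76 on the log2 scale at E14.5 against E11.5.

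Trpm3, a channel known to respond to heat and to pregnenolone sulphate, had signals of 41.2, 37.0 and 61.0 at E11.5, 92.7, 150 and 99.6 at E12.5 and 211, 195 and 381 at E14.5. No array of a stage fell within the range of another stage. Its log2 change at E14.5 against E11.5 was 2.47 ± 0.30 (adjusted p = 0.000234), against 1.47 with the higher floor and 1.01 with probe sets averaged. Trpm4, the close relative of Trpm5, was 1.92-fold higher at E14.5 than at E11.5 (495 ± 98.8 and 254 ± 9.65, SD, n = 3 each; adjusted p = 0.00199). Trpc1, a subunit of receptor-operated channels, was 1.90-fold higher (adjusted p = 0.0298), a call lost without array B of E11.5 (0.102), array A of E14.5 (0.0935) or array C of E14.5 (0.079) and without all A arrays (0.0575), and in 7 of the 20 alternatives in all.

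Trpm6 and Trpm7 encode channels joined to a protein kinase that pass magnesium. Trpm6 had signals of 143, 176 and 114 at E11.5, 62.1, 96.0 and 149 at E12.5 and 80.9, 59.4 and 70.6 at E14.5. The E14.5 arrays were below all E11.5 arrays, and the E12.5 arrays overlapped both. Trpm6 was 2.04-fold lower at E14.5 than at E11.5 (log2 -1.03 ± 0.30, adjusted p = 0.0209). This call was lost without array A of E11.5 (0.0516), without array B of E11.5 (0.0735) or without array B of E14.5 (0.069), and with probe sets averaged the log2 change was -0.37 (0.453). Trpm7 had signals of 3722, 5434 and 4467 at E11.5, 2879, 4041 and 3282 at E12.5 and 2744, 3443 and 4228 at E14.5. Its stages overlapped, and its log2 change at E14.5 against E11.5 was -0.39 ± 0.21 (adjusted p = 0.165), or -0.62 with median centring (0.0448).

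**Figure D2:**
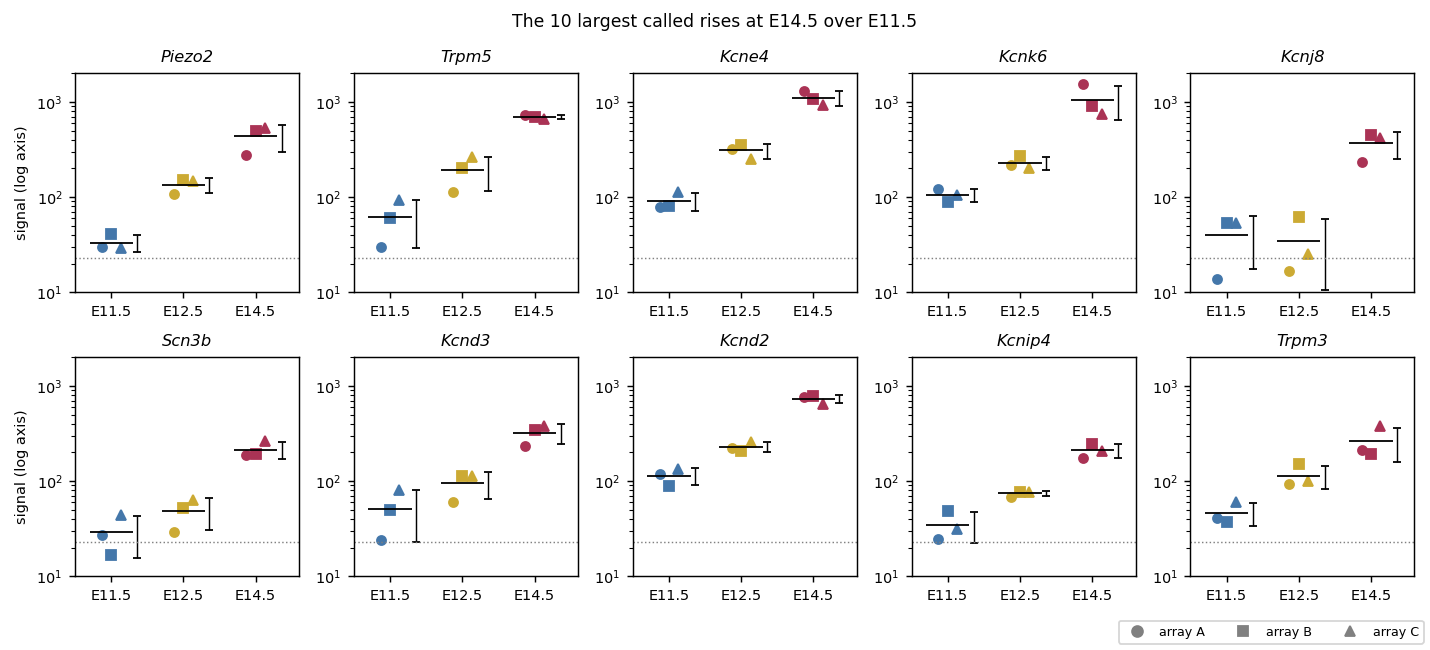
The 10 genes with the largest called rise at E14.5 over E11.5, among them Kcnip4, Kcnj8 and Scn3b, which passed the filter through E14.5 alone: signal of each array on a log axis by stage, with circle, square and triangle for arrays A, B and C, a line at the mean and a bar of 1 SD at its side. The dotted line is the floor of 22.7, and in each panel the 3 arrays of E14.5 lie above all earlier arrays.

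Voltage-gated calcium channels consist of a pore (Cacna1 genes) with auxiliary subunits. Of the 5 pore genes among the 56, 1 was called higher at E14.5 than at E11.5, where 22.9% of all genes were. Cacna1d, an L-type pore, had a signal of 346 ± 100 at E14.5 and 88.1 ± 15.6 at E11.5 (SD, n = 3 each), a log2 change of 1.94 ± 0.24 (adjusted p = 0.000277). Cacna1e, an R-type pore above the median at E14.5 alone, had signals of 107, 95.9 and 189 at E14.5 against 30.3, 22.1 and 60.1 at E11.5. Its log2 difference of 1.85 was 0.46 with the higher floor and 0.77 with probe sets averaged. The other L-type pore, Cacna1c, had 486 ± 46.5 at E14.5 and 529 ± 124 at E11.5, within its spread (log2 -0.10, adjusted p = 0.755). Its probe sets disagreed: another, above the median in all 9 arrays, was higher at E14.5 by 0.75 on the log2 scale.

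The T-type pores, which open at low voltages, are Cacna1g and Cacna1h. Cacna1g had signals of 1315, 2027 and 1451 at E11.5, 1380, 1834 and 2133 at E12.5 and 2304, 1952 and 2800 at E14.5. All stages overlapped, and the change at E14.5 against E11.5 did not pass (log2 0.57 ± 0.22, adjusted p = 0.0696). Cacna1h had signals of 592, 811 and 707 at E11.5, 862, 914 and 1117 at E12.5 and 553, 584 and 707 at E14.5. Its E12.5 arrays were above all others. Cacna1h was 1.57-fold lower at E14.5 than at E12.5 (log2 -0.65 ± 0.17, adjusted p = 0.024), while E12.5 against E11.5 did not pass (0.46 ± 0.17, adjusted p = 0.219). The call was lost without array B of E12.5 (0.0561), array C of E12.5 (0.0856), array A of E14.5 (0.0709) or array B of E14.5 (0.065), without all A arrays (0.0801) and with probe sets averaged (0.108).

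Among the auxiliary calcium subunits, 8 of 15 passed. At E14.5 against E11.5, 6 were higher with none lower, where 22.9% of all genes were higher and 17.7% lower. All 3 alpha2delta genes that passed, whose products carry the pore to the membrane, were in this group: Cacna2d3 by 2.40 ± 0.25 on the log2 scale (adjusted p = 8.09e-05), Cacna2d2 by 1.27 ± 0.28 (0.00541) and Cacna2d1 by 1.13 ± 0.24 (0.00478). Cacna2d3 had 364, 285 and 278 at E14.5 against 69.5, 39.0 and 71.8 at E11.5, all of the second set under the median of all signals. It reached 3 arrays above the median only with those of E14.5, so its p-value is not free of that selection. The beta subunit gene Cacnb1 was higher by 1.27 ± 0.19 (adjusted p = 0.000725). Averaging probe sets gave 0.70 for Cacna2d1 (adjusted p = 0.0629), 0.47 for Cacna2d2 and 0.44 for Cacnb1. Of the gamma subunits, grouped here by symbol, Cacng4 was higher by 1.25 ± 0.29 (adjusted p = 0.0074, and 0.0801 without the A arrays). Cacng7 was higher by 0.44 ± 0.15 (adjusted p = 0.0397). Its adjusted p rose to between 0.0501 and 0.124 when array A of E11.5, array C of E11.5, any E12.5 array, array A of E14.5 or array C of E14.5 was left out, and its log2 change was 0.22 with median centring (0.444). In all, this call was lost under 13 of the 20 alternatives.

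Voltage-gated sodium channels carry the fast upstroke of the action potential. Of 11 genes of these subunits, 6 passed, and 2 of these, Scn3b and Scn2a, were above the median at E14.5 alone. Of the other 4, 1 was higher and 1 lower at E14.5 than at E11.5, where 22.9% of all genes were higher and 17.7% lower. Scn3b, a beta subunit, had signals of 27.3, 16.6 and 43.8 at E11.5, 29.2, 51.8 and 63.7 at E12.5 and 186, 191 and 267 at E14.5. The E14.5 arrays stood above all others, and the 2 earlier stages overlapped near the floor. The log2 difference of Scn3b was 2.82 at E14.5 against E11.5 and 2.21 at E14.5 against E12.5. It was 1.22 in both with the higher floor, and 1.31 at E14.5 against E11.5 with probe sets averaged.

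The pore gene Scn3a was higher at E14.5 than at E11.5 by 2.28 ± 0.49 on the log2 scale (adjusted p = 0.0053). It was near the floor at E11.5, with the higher floor it did not pass (0.71, adjusted p = 0.0717), and with probe sets averaged the change was 1.14. Scn2a, another pore, differed by 1.85 on the log2 scale at E14.5 against E11.5, or by 0.39 with the higher floor and 0.75 with probe sets averaged. Scn1a and Scn8a, also pores, had no call in any comparison, though with the letters as a replicate block Scn8a passed at E12.5 against E11.5 (0.0414) and at E14.5 against E12.5 (0.045). Scn2b, another beta subunit, had signals of 832, 762 and 657 at E11.5, 585, 620 and 489 at E12.5 and 625, 500 and 538 at E14.5. Its E11.5 arrays were above all later arrays. It was 1.35-fold lower at E14.5 than at E11.5 (log2 -0.44 ± 0.15, adjusted p = 0.0472). This call had the largest adjusted p of the 6 falls, and was lost without array A of E11.5 (0.146), array B of E11.5 (0.103), array A of E12.5 (0.0629), array B of E12.5 (0.06), array B of E14.5 (0.137) or array C of E14.5 (0.109), and without all A arrays (0.114). In all, 10 of the 20 alternatives ended it.

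Potassium channels, which draw the membrane voltage towards rest, made up 25 of the 63 genes. Kcnip4, Kcnj15, Kcnj8 and Kcnma1 among them were above the median at E14.5 alone. Of the other 21, 14 were higher and 1 was lower at E14.5 than at E11.5, with a median log2 change of 1.84. Over all genes, 22.9% were higher and 17.7% lower. In E14.5 against E12.5, 7 of the 21 were higher and 1 lower, where 12.6% of all genes were higher and 9.32% lower. In E12.5 against E11.5, 7 of all 25 were higher and 1 lower, where 3.11% of all genes were higher and 0.441% lower. With a probe set but not passing were 56 further potassium channel genes, 22 of them voltage-gated and 12 of them inward rectifiers.

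Of the 9 voltage-gated potassium pores, 6 were higher at E14.5 than at E11.5, where 22.9% of all genes were. Kcnh2 was lower, where 17.7% of all genes were. Kcnd2, a pore of the transient A-type current, had signals of 118, 88.8 and 135 at E11.5, 223, 208 and 260 at E12.5 and 771, 779 and 650 at E14.5. The 3 stages were separate. The log2 change was 2.70 ± 0.18 at E14.5 against E11.5 (adjusted p = 6.17e-06) and 1.67 ± 0.18 at E14.5 against E12.5 (0.00028). It was 1.03 ± 0.18 at E12.5 against E11.5 (0.0158), which was lost without array C of E12.5 (0.0766), without the A arrays (0.0924), with no filter (0.054) and with probe sets averaged (0.109). Averaged over its probe sets, the change of Kcnd2 at E14.5 against E11.5 was 1.76.

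Kcnd3, the related pore, had signals of 24.0, 49.3 and 80.6 at E11.5, 61.0, 113 and 114 at E12.5 and 236, 346 and 380 at E14.5. The E14.5 arrays were above all earlier ones, while E11.5 and E12.5 overlapped. Kcnd3 reached 3 arrays above the median only with those of E14.5, so its p-values at E14.5 are not free of that selection. Its log2 change at E14.5 against E11.5 was 2.78 ± 0.42 (adjusted p = 0.000802), with 1.80 under the higher floor and 0.98 with probe sets averaged. At E14.5 against E12.5 it was 1.77 ± 0.42 (0.0161), a call lost without array A of E12.5 (0.0587) or array C of E14.5 (0.0546) and with no filter (0.0604). At E12.5 against E11.5 the adjusted p was 0.276, and 0.0372 with the letters as a replicate block. Kcnd1, the third of these pores, was 1.67-fold higher at E14.5 than at E11.5 (adjusted p = 0.0464), a call lost without array A of E11.5 (0.154), array B of E11.5 (0.0892), array B of E12.5 (0.0642), array B of E14.5 (0.117) or array C of E14.5 (0.13), and under 10 of the 20 alternatives in all.

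Kcnip4 encodes a calcium-binding partner of these A-type pores. Its signals were 24.4, 48.4 and 31.2 at E11.5, 68.6, 77.7 and 77.1 at E12.5 and 176, 247 and 207 at E14.5. The stages did not overlap, though all 6 earlier arrays were under the median of all signals. The log2 difference of Kcnip4 at E14.5 against E11.5 was 2.64, or 1.20 with the higher floor. Kcnq5, a pore of the slow M-type current, had signals of 23.0, 48.1 and 23.2 at E11.5, 71.9, 157 and 164 at E12.5 and 241, 123 and 127 at E14.5. Both later stages were above E11.5 and overlapped each other. As Kcnq5 reached 3 arrays above the median only with those of E14.5, its p-values there are not free of that selection. The change was 2.40 ± 0.41 at E14.5 against E11.5 (adjusted p = 0.0016) and 2.06 ± 0.41 at E12.5 against E11.5 (0.03). Another Kcnq5 probe set that passed the filter changed by only 0.19 and 0.34. With probe sets averaged, the change at E12.5 against E11.5 was 0.84 (0.283). The call at E12.5 was lost without array A of E11.5 (0.0937), array C of E11.5 (0.0765), array B of E12.5 (0.122) or array C of E12.5 (0.124), and under 9 of the 20 alternatives in all. At E14.5 against E12.5 the change was 0.34 ± 0.41 (0.584). The higher floor gave 0.78 at E14.5 against E11.5 and 0.55 at E12.5 against E11.5 (the second with an adjusted p of 0.401).

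Kcnh2 encodes the pore of the rapid delayed rectifier of the heart. It had signals of 385, 365 and 363 at E11.5, 215, 201 and 189 at E12.5 and 167, 192 and 141 at E14.5. The E11.5 arrays were above all later arrays, and E12.5 and E14.5 overlapped. Kcnh2 was 1.84-fold lower at E12.5 than at E11.5 (log2 -0.88 ± 0.14, adjusted p = 0.0114) and 2.24-fold lower at E14.5 than at E11.5 (log2 -1.17 ± 0.14, adjusted p = 0.000227). The first call was lost without array B of E12.5 (0.0582), without array C of E12.5 (0.0637) and without the A arrays (0.0779). No other gene of the 63 was called lower at E12.5 than at E11.5.

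Besides Kcnip4 and Kcnmb4, 4 auxiliary potassium subunits passed the filter, and these 4 were higher at E14.5 than at E11.5. Kcne4, a single-pass subunit known to inhibit some voltage-gated pores, had signals of 78.0, 80.4 and 113 at E11.5, 320, 356 and 249 at E12.5 and 1310, 1075 and 919 at E14.5. Each stage lay above the one before it with no overlap. The change was 12.2-fold at E14.5 against E11.5 (log2 3.61 ± 0.21, adjusted p = 2.96e-06), 3.42-fold at E12.5 against E11.5 (0.00347) and 3.57-fold at E14.5 against E12.5 (0.000379). Of the 12 calls between E12.5 and E11.5, that of Kcne4 was the one that held under all 20 alternatives, with adjusted p between 0.000519 and 0.0328. Kcne1l, of the same family, was higher by 1.97 ± 0.22 on the log2 scale at E14.5 against E11.5 (adjusted p = 0.000145). The beta subunit genes Kcnab1 and Kcnab2, whose products bind Shaker-type pores, were higher by 1.99 ± 0.40 (adjusted p = 0.00363) and 0.56 ± 0.17 (0.0225). The call of Kcnab2 was lost without array A of E11.5 (0.0776), array C of E11.5 (0.0707), array A of E14.5 (0.0593) or array C of E14.5 (0.0566), without all A arrays (0.143) and with median centring (0.284). With probe sets averaged the change of Kcnab2 was 0.09 (0.698).

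The promoter window of Kcne4 is shown because its rise had the smallest adjusted p of the 63 genes. It runs from 250 bases before to 50 bases after the RefSeq start in GRCm38.p6, read 5′ to 3′ on the strand of the gene. Capitals mark matches on either strand to CANNTG, the letters of the E-box that Scx and other basic helix-loop-helix factors can bind.
Kcne4 promoter, chr1:78816661-78816960, plus strand: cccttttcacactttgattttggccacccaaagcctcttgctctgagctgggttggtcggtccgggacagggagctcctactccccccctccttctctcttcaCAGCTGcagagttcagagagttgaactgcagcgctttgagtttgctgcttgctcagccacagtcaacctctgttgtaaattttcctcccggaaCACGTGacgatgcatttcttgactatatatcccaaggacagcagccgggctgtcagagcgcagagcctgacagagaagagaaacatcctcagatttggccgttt
The window holds 2 matches. The E-box letters are found in 72.3% of all 32851 such windows, so a match here is common, and it is a description of letters and not a site. Of the genes called higher at E14.5 against E11.5, 27 have a window, and 18 of these (66.7%) hold the E-box letters in at least 1 window, as do 75.0% of all 27025 genes with a window.

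Inward rectifiers hold the resting voltage, and Kcnj8 encodes the pore of a channel closed by ATP that is well known from smooth muscle and pericytes. Kcnj8 had signals of 13.9, 53.4 and 53.4 at E11.5, 16.5, 61.5 and 25.4 at E12.5 and 236, 450 and 418 at E14.5. The E14.5 arrays were above all others, and the A arrays of the earlier stages were under the floor of 22.7. The log2 difference was 3.14 at E14.5 against E11.5 and 3.43 at E14.5 against E12.5. Both were 1.97 with the higher floor. The smooth muscle and pericyte markers also moved up with stage (3 of 5), and their part in the Kcnj8 difference was not tested. Kcnj11, which encodes the sister pore, had 1016 ± 152 at E14.5 and 1152 ± 206 at E11.5 (log2 -0.18, adjusted p = 0.572). Kcnj15, another inward rectifier, had 158, 120 and 93.2 at E14.5 and was under the floor in all 6 earlier arrays. The mean of its log2 signals at E14.5 was 2.41 above the floor, or 0.42 with the higher floor. With no floor and 1 added to each signal, the log2 difference at E14.5 against E11.5 was 3.75.

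Two-pore potassium channels carry a background leak current. Kcnk6 had signals of 122, 87.7 and 106 at E11.5, 215, 267 and 201 at E12.5 and 1525, 907 and 741 at E14.5. The stages were separate, and array A of E14.5 was the highest array. Kcnk6 was 9.68-fold higher at E14.5 than at E11.5 (log2 3.28 ± 0.26, adjusted p = 1.64e-05) and 4.46-fold higher at E14.5 than at E12.5 (0.000537). The 2.17-fold change at E12.5 against E11.5 (adjusted p = 0.0478) was lost without any 1 array other than array A of E14.5 or array C of E14.5, with values between 0.0767 and 0.184, and under 12 of the 20 alternatives in all. Kcnk2, a leak channel known to open on membrane stretch, had 717 ± 151 at E14.5, against 149 ± 23.3 at E11.5 (SD, n = 3 each). It was higher at E14.5 than at E11.5 by 2.26 ± 0.19 on the log2 scale (adjusted p = 2.89e-05). Kcnk1 was higher by 1.68 ± 0.31 (adjusted p = 0.00226), with 1434, 817 and 560 at E14.5 against 341, 246 and 237 at E11.5. Kcnk5 had 275, 119 and 91.7 at E14.5 against 188, 170 and 210 at E11.5, with array A of E14.5 above and the other two below every E11.5 array. Its log2 change was -0.38 (adjusted p = 0.421), and it was called lower without array A of E14.5 (0.0155).

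The calcium-activated and sodium-activated potassium channels are opened by ions inside the cell. Kcnma1, the pore of the large-conductance calcium-activated channel, had a signal of 185 ± 5.41 at E14.5 and 57.0 ± 3.24 at E11.5 (SD, n = 3 each). Its log2 difference was 1.70, or 1.03 with the higher floor and 0.74 with probe sets averaged. Kcnt2, a sodium-activated pore, was higher by 2.12 ± 0.52 (adjusted p = 0.00979), or 0.91 with the higher floor.

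Kcnmb4 encodes an auxiliary subunit of the channel that Kcnma1 forms, and its signal was highest at the middle stage. Its signals were 1252, 677 and 1069 at E11.5, 2143, 1775 and 1880 at E12.5 and 892, 976 and 928 at E14.5. The E12.5 arrays were above all others, and E14.5 lay within the range of E11.5. Kcnmb4 was 1.99-fold higher at E12.5 than at E11.5 (log2 0.99 ± 0.21, adjusted p = 0.0375) and 2.07-fold lower at E14.5 than at E12.5 (log2 -1.05 ± 0.21, adjusted p = 0.00792). Kcnmb4os2, an antisense transcript of that locus, had signals of 165, 133 and 173 at E11.5, 340, 252 and 426 at E12.5 and 99.5, 130 and 165 at E14.5. It had the same shape, with every E12.5 array above all others. It was 2.13-fold higher at E12.5 than at E11.5 (log2 1.09 ± 0.24, adjusted p = 0.0405) and 2.57-fold lower at E14.5 than at E12.5 (log2 -1.36 ± 0.24, adjusted p = 0.00396). Without the A arrays the falls had adjusted p of 0.0541 for Kcnmb4 and 0.0553 for Kcnmb4os2. The rises of both were lost too without the A arrays (0.0764 and 0.127), with no filter (0.114 and 0.127) and in a fit of the E12.5 and E11.5 arrays alone (0.0854 and 0.0529). They were lost with probe sets averaged (0.0548 and 0.0582), though each gene has 1 probe set. There the log2 changes stayed the same, and only the test over all genes moved. The rises were also lost without array B of E11.5 (0.0503 and 0.131), array C of E11.5 (0.0607 and 0.0658), array A of E12.5 (0.101 and 0.0982), array C of E12.5 (0.124 and 0.155) or array B of E14.5 (0.064 and 0.0687). That of Kcnmb4 was lost as well with median centring (0.109) and without array B of E12.5 (0.109) or array C of E14.5 (0.0581), and that of Kcnmb4os2 without array A of E11.5 (0.0934).

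**Figure D3:**
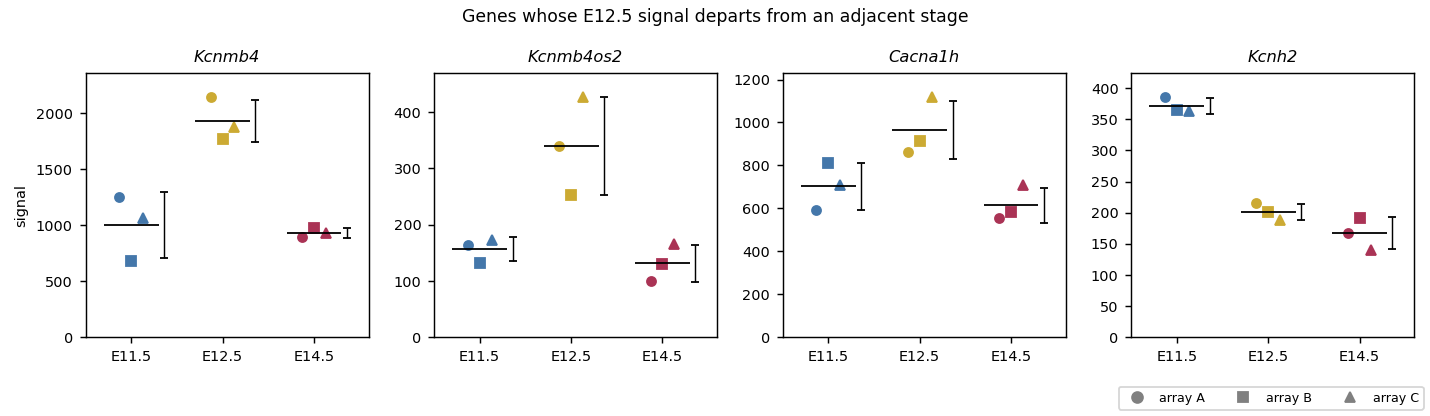
Signal of each array by stage, on linear axes from 0, for 4 genes whose E12.5 level was apart from an adjacent stage: circle, square and triangle are arrays A, B and C, lines are means and bars 1 SD. Kcnmb4, Kcnmb4os2 and Cacna1h are highest at E12.5, and Kcnh2 is highest at E11.5.

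The promoter windows of this pair are shown because both genes moved together and start on opposite strands of the same stretch, with windows that lie 261 bases apart. RefSeq gives the 2 genes spans that overlap, and whether the 2 probe sets read separate transcripts was not tested. Capitals mark GGGCGG, the letters of the GC box, on either strand of the window.
Kcnmb4 promoter, chr10:116473474-116473773, minus strand: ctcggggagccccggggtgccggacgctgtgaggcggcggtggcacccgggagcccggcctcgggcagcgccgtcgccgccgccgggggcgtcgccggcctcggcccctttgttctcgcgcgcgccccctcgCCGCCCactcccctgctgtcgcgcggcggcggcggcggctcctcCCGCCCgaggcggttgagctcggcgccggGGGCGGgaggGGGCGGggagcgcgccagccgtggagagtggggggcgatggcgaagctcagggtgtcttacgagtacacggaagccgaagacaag
Kcnmb4os2 promoter, chr10:116472913-116473212, plus strand: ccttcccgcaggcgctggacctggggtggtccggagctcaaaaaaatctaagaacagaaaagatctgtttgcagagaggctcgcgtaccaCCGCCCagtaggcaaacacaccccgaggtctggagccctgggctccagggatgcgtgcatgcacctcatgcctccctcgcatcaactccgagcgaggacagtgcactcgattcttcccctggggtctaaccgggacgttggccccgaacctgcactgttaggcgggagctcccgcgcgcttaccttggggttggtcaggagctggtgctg
The Kcnmb4 window holds 4 GC boxes and that of Kcnmb4os2 holds 1, while neither holds an E-box. A GC box is found in 35.7% of all windows and in 38.2% of all genes with a window.

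Connexins build gap junctions, and all 3 that passed the filter were called lower at E14.5 than at E11.5, where 17.7% of all genes were. Of 14 connexin and pannexin genes with a probe set, Gja1, Gja3, Gjc1 and Panx1 passed. Gja10, Gja4, Gja5, Gjb1, Gjb2, Gjb5, Gjb6, Gjc3, Gjd2 and Gjd4 did not. The median log2 change of the 4 at E14.5 against E11.5 was -0.69.

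Gja1, the connexin best known from tendon, bone and heart, had signals of 12401, 13372 and 12319 at E11.5, 9298, 9623 and 8578 at E12.5 and 6487, 8767 and 8916 at E14.5. The E11.5 arrays were above all later arrays, and E12.5 and E14.5 overlapped. Gja1 was 1.59-fold lower at E14.5 than at E11.5 (log2 -0.67 ± 0.15, adjusted p = 0.00623). Neither E12.5 against E11.5 (-0.47 ± 0.15, adjusted p = 0.145) nor E14.5 against E12.5 (-0.20 ± 0.15, 0.366) passed. The 6 Gja1 probe sets that passed the filter all had lower signals at E14.5 than at E11.5, with log2 changes between -0.83 and -0.15.

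Gjc1, another widely expressed connexin, had signals of 6107, 6417 and 6423 at E11.5, 5354, 6021 and 5490 at E12.5 and 3400, 4143 and 4086 at E14.5. Each stage was below the one before it with no overlap. It was 1.64-fold lower at E14.5 than at E11.5 (log2 -0.71 ± 0.13, adjusted p = 0.00207) and 1.45-fold lower at E14.5 than at E12.5 (log2 -0.54 ± 0.13, adjusted p = 0.0157). The second call was lost without array B of E12.5 (0.0613) and without the A arrays (0.0949).

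Gja3, known as a connexin of lens fibres, had the largest fall of all 63 genes. Its signals were 399, 303 and 355 at E11.5, 256, 208 and 169 at E12.5 and 17.9, 36.9 and 45.9 at E14.5. The stages did not overlap, and at E14.5 all 3 arrays were under the median of all signals and array A was under the floor. Gja3 was 10.4-fold lower at E14.5 than at E11.5 (log2 -3.38 ± 0.26, adjusted p = 1.48e-05) and 6.17-fold lower at E14.5 than at E12.5 (log2 -2.62 ± 0.26, adjusted p = 0.000208). With the higher floor these log2 changes were -1.95 and -1.20, and with probe sets averaged they were -1.84 and -1.45. The change at E12.5 against E11.5 did not pass (-0.75 ± 0.26, adjusted p = 0.186), but did with the higher floor (0.0399).

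Panx1 forms large membrane pores that release ATP. Its signals were 840, 820 and 685 at E11.5, 899, 839 and 712 at E12.5 and 579, 693 and 570 at E14.5. The E14.5 arrays were below all E12.5 arrays and overlapped E11.5. The log2 change was -0.35 ± 0.15 at E14.5 against E11.5 (adjusted p = 0.0926) and -0.41 ± 0.15 at E14.5 against E12.5 (0.08, and 0.0445 with the letters as a replicate block).

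**Figure D4:**
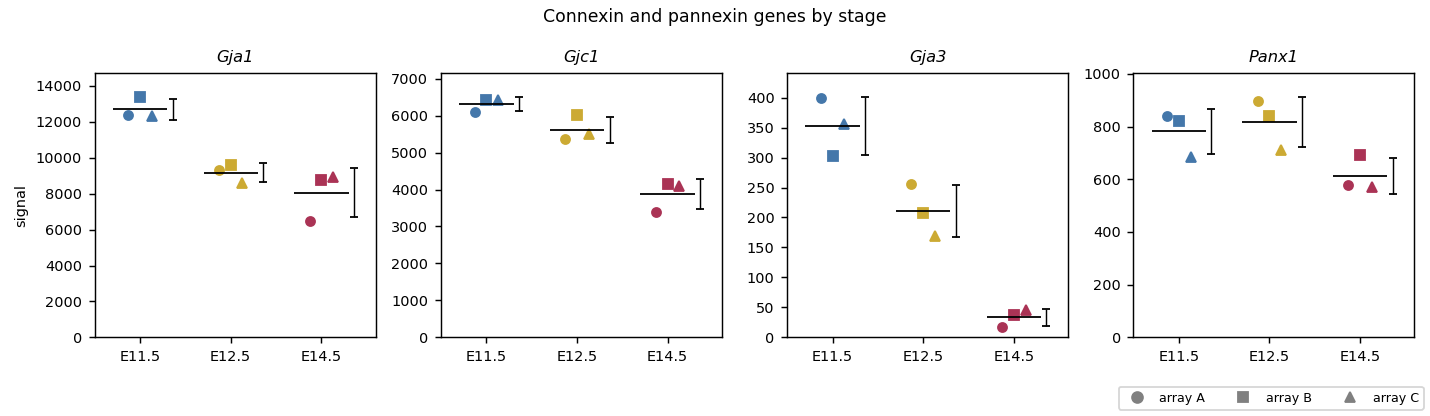
Signal of each array by stage for the 4 connexin and pannexin genes that passed, on linear axes from 0: circle, square and triangle are arrays A, B and C, lines are means and bars 1 SD. The E14.5 arrays are below all E11.5 arrays for Gja1, Gjc1 and Gja3, and for Panx1 those 2 stages overlap.

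The windows of the 2 alpha connexins that fell are shown for comparison, from GRCm38.p6 as above. For Gja3, only the window farthest upstream is shown. Capitals mark the GC box, the E-box and the letters of the AP-1 site (TGANTCA) on either strand.
Gja3 promoter, chr14:57057981-57058280, minus strand: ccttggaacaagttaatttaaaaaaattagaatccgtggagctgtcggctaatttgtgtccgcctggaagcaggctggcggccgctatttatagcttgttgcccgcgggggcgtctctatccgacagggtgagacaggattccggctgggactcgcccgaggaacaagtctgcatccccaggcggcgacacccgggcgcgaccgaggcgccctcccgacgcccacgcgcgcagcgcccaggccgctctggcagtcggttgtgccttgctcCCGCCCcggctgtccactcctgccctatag
Gja1 promoter, chr10:56377050-56377349, plus strand: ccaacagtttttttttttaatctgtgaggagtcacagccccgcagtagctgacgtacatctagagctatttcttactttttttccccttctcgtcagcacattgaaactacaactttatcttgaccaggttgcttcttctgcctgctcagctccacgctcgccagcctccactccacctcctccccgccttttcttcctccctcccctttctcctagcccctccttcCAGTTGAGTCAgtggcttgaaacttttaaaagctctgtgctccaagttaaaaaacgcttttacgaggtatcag
The Gja3 window shown holds 1 GC box and neither of the other 2 motifs, and other windows of Gja3 are not described. That of Gja1 holds 1 E-box and 1 AP-1 match, which overlap, and no GC box. The AP-1 letters are found in 7.81% of all windows. Among the 5 genes called lower at E14.5 against E11.5 that have a window, the E-box letters are in 4, the GC box in 2 and the AP-1 letters in 1. Over all genes with a window, these shares are 75.0%, 38.2% and 8.97%.

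Symbols that begin like a channel's but name no subunit were also taken by the rule. Beside Kcnmb4os2 these were Kcnq1ot1, an antisense transcript of the Kcnq1 locus, Scnm1, which encodes a splicing factor, and Trpc4ap, a binding partner of a TRP channel. None of these 3 was called in any comparison.

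Of the 95 genes that did not pass, 71 were above the median signal in no array and 24 in 1 or 2 arrays, and 9 were under the floor in all 9. They included all 3 epithelial sodium channel genes, 10 of 18 TRP genes, among them Trpv4, 3 of 9 calcium pores and 8 of 12 two-pore potassium genes. A signal under the median is not evidence that a gene is silent.

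Other channel, pump and junction genes, taken from a separate list of 66, were put through the same filter and test. Any of them above the median at E14.5 alone were not set apart, unlike among the channel and connexin genes. The filter may thus favour some of their calls at E14.5. At E14.5 against E11.5, of 43 that passed the filter, 20 were higher and 2 lower, with a median log2 change of 0.55, where 22.9% of all genes were higher and 17.7% lower. The largest rises were those of Cav1, a caveola protein (3.01 ± 0.25, adjusted p = 2.55e-05), Atp1b1, a sodium pump subunit (2.68 ± 0.23), and Ano1, a calcium-activated chloride channel (2.64 ± 0.57). Clic4 and Atp1b3 were lower, with log2 changes of -0.40 ± 0.12 and -0.40 ± 0.13. At E14.5 against E12.5, 12 of the 43 were higher, where 12.6% of all genes were higher. At E12.5 against E11.5, limma called 0 of the 43 in either direction (7 higher and 1 lower at an unadjusted p under 0.05), where 3.11% of all genes were higher.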

How the data were processed

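The authors deposited 1 intensity for each probe set on each array. Per the submitters' processing notes it is the MAS5 signal of Affymetrix Expression Console 1.1. The deposited intensities had a trimmed mean of 500 in every array (lowest and highest 2% left out) and were not normalized again. Array medians were 68.7 to 118, and no pair of arrays was identical. Precision is limited by the 3 arrays per stage.

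Of 45101 probe sets, 34945 had 1 gene symbol. The probe set of highest mean log2 signal stood for its gene, one ending in _x_at only where there was no other. Signals under 22.7, the 25th percentile, were set to that floor before log2. Genes above the median signal in at least 3 arrays were tested with limma 3.58.1 in R 4.3.3, in 1 fit of all 9 arrays (6 residual degrees of freedom), two-sided, with Benjamini-Hochberg adjustment over all 11575 genes. The fit was tested on simulated data.

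Genes given with all values were the connexin, Piezo and Panx1 genes, the 10 largest rises and all falls at E14.5 against E11.5, the 4 largest changes each way in the other comparisons, and the 5 highest mean signals. Members, lists and this rule were chosen with earlier results of these data known. The letters A to C have no stated meaning. Deviations of same-letter arrays correlated at 0.121 to 0.52 in comparisons with E12.5. At E14.5 against E11.5, letter B gave -0.00516. As an alternative, the letters were used as a replicate block in every comparison. Promoter windows are RefSeq's, GRCm38.p6, present for 48 of the 63 genes. All 158 symbols matched the RefSeq gene list.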

Additional observations from a re-analysis of the deposited data

How the results depend on the processing

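Over 20 alternatives no called change of the 63 genes changed sign. Calls that held under all of them were 29 of 41 at E14.5 against E11.5, 12 of 25 at E14.5 against E12.5 and 1 of 12 at E12.5 against E11.5. These counts include the 7 genes that passed the filter through E14.5 alone. At E14.5 against E11.5 the count ranged from 34, with probe sets averaged, to 41, and from 36 to 40 with 1 array left out. At E14.5 against E12.5 it was 14 without the A arrays and 20 to 26 with 1 array left out. At E12.5 against E11.5 it was 3 with no filter, 4 with probe sets averaged and 6 without the A arrays, and 2 to 11 with 1 array left out. No filter means more genes tested, and fewer arrays leave fewer degrees of freedom; other causes were not tested. With the letters as a replicate block the counts were 40, 30 and 17. Beyond those 7 and the genes described above, the block added Kcnk1 (0.032) and Scn3a (0.032) at E12.5 against E11.5, and Cacna2d1 (0.0224) and Kcnk1 (0.0359) at E14.5 against E12.5. It ended 1 call, that of Cacng7 at E14.5 against E11.5 (0.0501), and no other call of the 63.

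Over all genes, E12.5 against E11.5 gave 360 higher and 51 lower. It gave 154 and 28 with no filter, 136 and 20 with probe sets averaged, 213 and 34 with median centring, and 113 and 12 without E12.5 C. E14.5 against E12.5 gave 1463 and 1079, or 785 and 299 without the A arrays. Signals near the floor limit the size of the changes: raising the floor to the median left 35 calls at E14.5 against E11.5. Of 20 genes with several probe sets that passed, 13 were called at E14.5 against E11.5, and in these 13 all such probe sets changed in the same direction. Sizes could still differ, as for Kcnq5, with log2 changes of 0.19 to 2.40. Of the genes not called, 4 had probe sets of opposite direction: Cacna1c, Kcnn1, Kcnq1ot1 and Trpm7.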
